A study of Mus musculus with 10 samples.

Results

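Sirtuins are enzymes that use NAD as a co-substrate to remove acetyl and other acyl groups from lysines, so that their activity is tied to the NAD a cell has at hand. The mammalian family holds 7 genes. Sirt3, Sirt4 and Sirt5 encode the proteins found in mitochondria, Sirt2 a mainly cytosolic enzyme, Sirt1 and Sirt6 nuclear enzymes, and Sirt7 a nucleolar one. Brown fat burns fuel in densely packed mitochondria, and Sirt3 is known there as the main mitochondrial deacetylase. The rows named Sirt1 to Sirt7 were taken by symbol from a table of 15075 genes, and all 7 passed the filter on low values that left 11244 genes to be tested.

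The data are polyadenylated RNA from interscapular brown fat (iBAT) of C57BL/6 mice aged 20 weeks and housed at room temperature, with 5 Control and 5 AdCKO libraries. Crls1 encodes cardiolipin synthase, which makes the signature phospholipid of the inner mitochondrial membrane. AdCKO mice carry floxed Crls1 alleles, with loxP sites around exon 4, together with Cre under the adiponectin promoter, which is active in adipocytes of all depots. Control mice carry the floxed alleles without Cre, and the labels call them wild-type. Values are normalized reads per kb of exon, called levels here, so that levels of different genes can be set side by side. They come from whole tissue, where fewer cells of a type and less RNA per cell cannot be told apart.

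Crls1 was at 813 to 1291 in the Control libraries and at 190 to 249 in the AdCKO libraries. The groups did not overlap, and its mean in AdCKO was 20.5% of that in Control. The normalized reads of a library summed to between 7615403 and 8171138 for Control, and for AdCKO to between 5419800 and 5843024. The summed levels of 6 brown adipocyte markers were 211301 to 240768 in Control and 131315 to 156046 in AdCKO, those of 6 macrophage markers 383 to 1151 and 5659 to 7756, and those of 6 fibroblast markers 910 to 1192 and 3597 to 5102. The labelled tissue thus showed its defining markers, Ucp1, Cidea and Adipoq among them, in every library. Skeletal muscle markers summed to between 82.0 and 109 in Control and to 128 and 114 in AdCKO 3 and AdCKO 5, but reached 5135 in AdCKO 1, 19274 in AdCKO 2 and 7460 in AdCKO 4.

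Of the 7 sirtuins, 5 were lower in AdCKO (limma, Benjamini-Hochberg adjusted p under 0.01), none was higher and 2 did not pass. Over all tested genes 28% were lower and 25.6% higher, 53.6% in either direction. At an unadjusted p under 0.05, 1 sirtuin, Sirt7, was higher. The median difference of the 7 was -0.59 on the log2 scale, against -0.011 over all tested genes. Sirt5 and Sirt3 had the largest differences, Sirt4, Sirt2 and Sirt6 smaller ones, and Sirt7 and Sirt1 did not pass. Differences are of log2(level + 1), AdCKO minus Control, which understates the change of low genes. Low values may also have been drawn together before deposit, by a step the sources used here do not name. The low gene Nmrk2, for example, was at 1.40 to 1.42 in the Control libraries. The levels of Sirt2, Sirt3, Sirt4 and Sirt5 did not overlap between the groups, 4 of 7, while 50.9% of all tested genes had no overlap. Counted in either direction, these shares place the family near the background in how often its genes moved. Its called members were all lower, 5 of 7, where 28% of all tested genes were lower. No test was run on these shares. The description below is of sizes and of the order within the family.

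**Figure D1:**
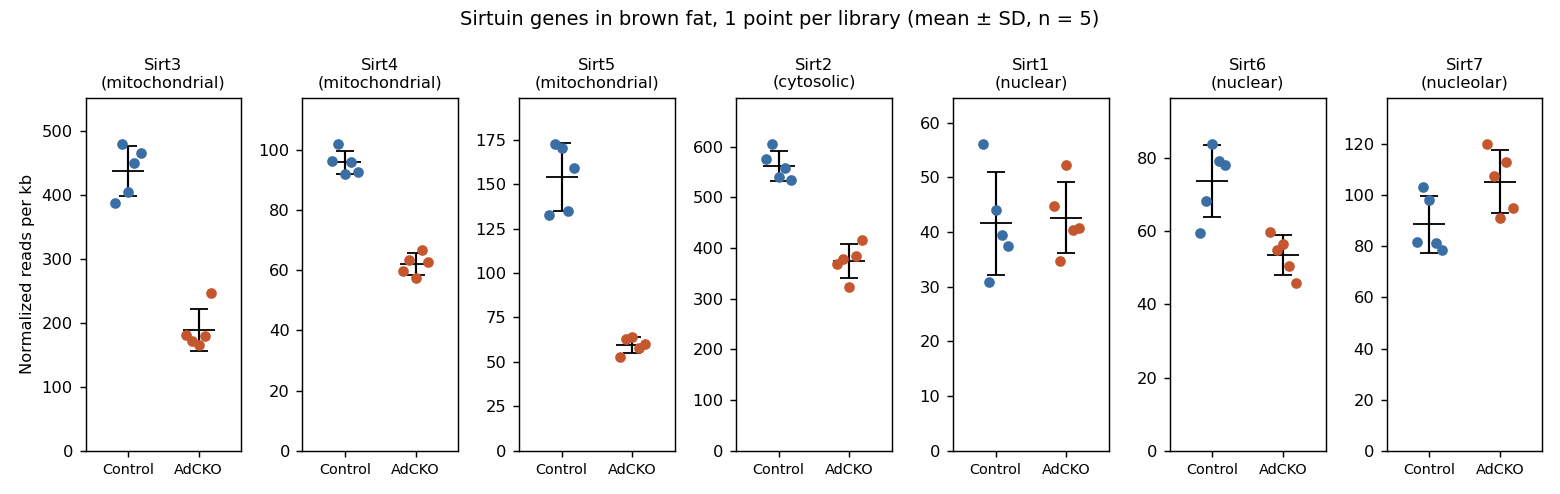
Level of each sirtuin gene (y axis, normalized reads per kb, from 0) in the 5 Control and 5 AdCKO libraries, 1 point per library, with bars for the mean ± SD. In the panels of Sirt3, Sirt4, Sirt5 and Sirt2 every AdCKO point lies below every Control point, while in those of Sirt1, Sirt6 and Sirt7 the groups overlap.

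Sequence upstream of the start is shown for the members with the largest and the smallest difference, Sirt5 and Sirt1. Also shown is part of the gap between Sirt2 and a gene on the other strand in the deposited models, since that pair moved unequally. The bases are from mm9 (NCBIM37), 5′ to 3′ on the strand of the sirtuin, within 250 bases before the start of the deposited transcript and without bases that the GENCODE annotation assigns to any exon. They lie at chr13:43465835-43466078 on the plus strand for Sirt5, at chr10:62801799-62802033 on the minus strand for Sirt1 and at chr7:29551660-29551753 on the plus strand for Sirt2. Capitals mark E-boxes, CACGTG.
Sirt5: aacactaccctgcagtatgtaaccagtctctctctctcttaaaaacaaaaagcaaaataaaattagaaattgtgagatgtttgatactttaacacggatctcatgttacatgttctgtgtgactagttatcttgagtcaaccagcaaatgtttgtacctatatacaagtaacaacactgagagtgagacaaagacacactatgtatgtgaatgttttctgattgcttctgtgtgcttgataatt
Sirt1: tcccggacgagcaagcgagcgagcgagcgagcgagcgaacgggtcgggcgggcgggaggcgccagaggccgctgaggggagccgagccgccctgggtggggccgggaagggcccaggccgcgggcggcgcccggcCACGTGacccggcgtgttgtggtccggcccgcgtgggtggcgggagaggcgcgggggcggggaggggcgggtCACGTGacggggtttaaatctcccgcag
Sirt2 to Nfkbib: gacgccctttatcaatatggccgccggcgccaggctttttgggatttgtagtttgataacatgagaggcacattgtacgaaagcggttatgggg

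The Sirt5 stretch was AT-rich and the Sirt1 stretch GC-rich. Over the whole 250 bases, G and C made up 34% of the Sirt5 window, with 1 CpG, and 79.2% of the Sirt1 window, with 39 CpGs. The medians over 15073 such windows were 59.2% and 14 CpGs. The other members lay between these, from 49.2% for Sirt7 to 62.4% for Sirt3. GENCODE also gives Sirt5 a first exon 5203 bases before the deposited start, so the window is the promoter of the deposited transcript model only. The CpG count of the window did not follow the order of the differences, as Sirt3, second after Sirt5, had 21 CpGs.

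Short motifs were searched as exact strings on both strands of these windows, so near matches were not counted. The core site of the estrogen-related receptors, AAGGTCA, was present in 2.81% of all windows and the cyclic AMP response element, TGACGTCA, in 2.5%. The element bound by ATF4 and its partners, TTGCATCA, was present in 0.478%. None of these letters was in a window of the 7 sirtuins. The E-box was in 7.88% of all windows and in that of Sirt1 alone among the sirtuins, with the matches 115 to 110 and 43 to 38 bases before the start. CCAAT was in 35.3% of all windows and in that of Sirt2 alone, at 216 to 212 and 165 to 161 bases before the start, in bases that GENCODE also gives to an exon of its neighbour Nfkbib. The 10-letter palindrome of NRF1, a factor of genes for respiration, was in 1.34% of all windows and in that of Sirt6 alone. It is in capitals in the 30 bases at chr10:81090435-81090464 on the minus strand, which GENCODE places in the first exon of a Sirt6 transcript.
Sirt6: catcaggaggGCGCATGCGCtctggaaaga

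Sirt3 encodes the deacetylase of many enzymes of the respiratory chain, the TCA cycle and fatty acid oxidation (NM_022433, chr7:148049562-148068208, minus strand). Its level was 387, 479, 405, 449 and 465 in Control 1 to 5. In AdCKO 1 to 5 it was 181, 171, 165, 179 and 247. The groups did not overlap, and AdCKO 5 was the highest library of its group by a wide margin. Means were 437 ± 39.5 and 189 ± 33.3 (SD, n = 5 each), which put AdCKO at 43.2% of Control. On the log2 scale Sirt3 fell by 1.22 (SE 0.11, 95% interval -1.45 to -0.98, limma adjusted p = 1.19e-06), and 3.68% of all tested genes had a lower difference. The exact two-sided permutation p over the 10 libraries was 0.0079, the smallest that 5 against 5 can give.

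Sirt5 encodes the enzyme that removes succinyl, malonyl and glutaryl groups from mitochondrial proteins (NM_178848, chr13:43466085-43490572, plus strand). Its level was 133, 173, 170, 135 and 159 in Control 1 to 5. The AdCKO libraries 1 to 5 had 52.7, 63.1, 63.8, 58.0 and 60.1. The highest AdCKO library was below every Control library by more than the whole range of the AdCKO group. The means were 154 ± 19.1 and 59.6 ± 4.49 (SD, n = 5 each), with AdCKO at 38.7% of Control. Sirt5 fell by 1.35 on the log2 scale (SE 0.092, 95% interval -1.55 to -1.15, limma adjusted p = 1.54e-07), which was the largest difference in the family under every setting tried. Of all tested genes, 2.61% had a lower difference.

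Sirt4, whose product acts on lipoyl and other acyl groups and restrains glutamate dehydrogenase, had a smaller difference (NM_133760, chr5:115928019-115934493, minus strand). Its level was 96.4, 102, 92.0, 96.1 and 92.8 in Control 1 to 5. Levels in AdCKO 1 to 5 were 59.8, 63.4, 57.3, 66.9 and 62.6. Both groups were tight, and they did not overlap. Means were 95.9 ± 3.95 and 62.0 ± 3.63 (SD, n = 5 each), so AdCKO was at 64.7% of Control. Sirt4 fell by 0.62 on the log2 scale (SE 0.063, 95% interval -0.76 to -0.48, limma adjusted p = 3.33e-06).

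Sirt2, a tubulin deacetylase that also acts in the nucleus during division, was the most abundant sirtuin of both groups (NM_022432, chr7:29551771-29573684, plus strand). Its level was 577, 605, 539, 558 and 533 in Control 1 to 5. For AdCKO 1 to 5 it was 368, 378, 323, 384 and 416. No AdCKO library reached the lowest Control library. The means were 563 ± 29.3 and 374 ± 33.5 (SD, n = 5 each), and AdCKO stood at 66.5% of Control. Sirt2 fell by 0.59 on the log2 scale (SE 0.074, 95% interval -0.75 to -0.43, limma adjusted p = 1.96e-05), a difference close to that of mitochondrial Sirt4.

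Sirt6, a histone H3 deacetylase known for its part in DNA repair and in holding down glycolytic genes, moved least among the sirtuins that passed (NM_181586, chr10:81084531-81090353, minus strand). Its level was 59.5, 68.1, 83.8, 79.0 and 78.0 in Control 1 to 5. In AdCKO 1 to 5 it was 59.6, 54.7, 56.4, 50.5 and 45.7. Control 1 fell just below AdCKO 1, so the groups overlapped by this pair of libraries. Mean Sirt6 in AdCKO stood at 72.5% of Control, and it fell by 0.45 on the log2 scale (SE 0.10, 95% interval -0.68 to -0.23, limma adjusted p = 0.00205). The exact two-sided permutation p was 0.016. In the fit with only AdCKO 3 and AdCKO 5, the knockout libraries without high muscle markers, the difference was -0.52 and its limma adjusted p was 0.013, which did not pass.

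Sirt7 and Sirt1 were not called. Sirt7, which supports transcription of ribosomal DNA (NM_153056, chr11:120479686-120486316, minus strand), was at 81.5, 103, 98.2, 81.4 and 78.3 in Control 1 to 5. The values of AdCKO 1 to 5 were 120, 108, 90.9, 113 and 94.8. The groups overlapped, with a difference of 0.25 on the log2 scale (SE 0.10, 95% interval 0.026 to 0.47, limma adjusted p = 0.048, exact two-sided permutation p = 0.056). AdCKO 1, AdCKO 2 and AdCKO 4, the libraries with 5135 to 19274 of summed muscle markers, had the higher Sirt7 levels of their group, 108 to 120. Among these, AdCKO 2 had the highest muscle sum and the lowest Sirt7 level, and AdCKO 1 the reverse. The part of muscle in the Sirt7 levels was not tested. With only AdCKO 3 and AdCKO 5 the difference was 0.077 (limma adjusted p = 0.64).

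Sirt1, the nuclear deacetylase known for acting on the coactivator encoded by Ppargc1a and on p53, was the least abundant sirtuin of both groups (NM_001159589, chr10:62781753-62801783, minus strand). Its level was 56.1, 31.0, 44.1, 39.5 and 37.4 in Control 1 to 5. In AdCKO 1 to 5 it was 44.8, 34.8, 52.3, 40.4 and 40.7. All AdCKO libraries lay within the Control range. The means were 41.6 ± 9.38 and 42.6 ± 6.49 (SD, n = 5 each), and the difference was 0.048 with a 95% interval of -0.27 to 0.37 (limma adjusted p = 0.79). Under the authors' normalization, a Sirt1 fall of the size seen for Sirt2, Sirt3, Sirt4, Sirt5 or Sirt6 lies outside this interval. Changes from -0.27 to 0.37 lie within it.

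The calls of several members depended on how the libraries were scaled. AdCKO libraries hold fewer normalized reads in all, and giving each library the same total moved the median of all genes up by 0.47 on the log2 scale. Sirt3 and Sirt5 then still passed, at -0.74 and -0.87. Sirt2, at -0.11 (limma adjusted p = 0.12), and Sirt4, at -0.15 (limma adjusted p = 0.034), no longer passed. Sirt6 was at 0.021, and Sirt7 passed as higher at 0.73 (limma adjusted p = 3.93e-05). Sirt1 was at 0.52 and just missed the threshold (limma adjusted p = 0.011). Set against the median of all genes the spacing of the members was nearly as before, because such scaling shifts all members of a library alike. Under quantile normalization, the 5 sirtuins called lower were called again, between -0.40 for Sirt2 and -1.36 for Sirt5.

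**Figure D2:**
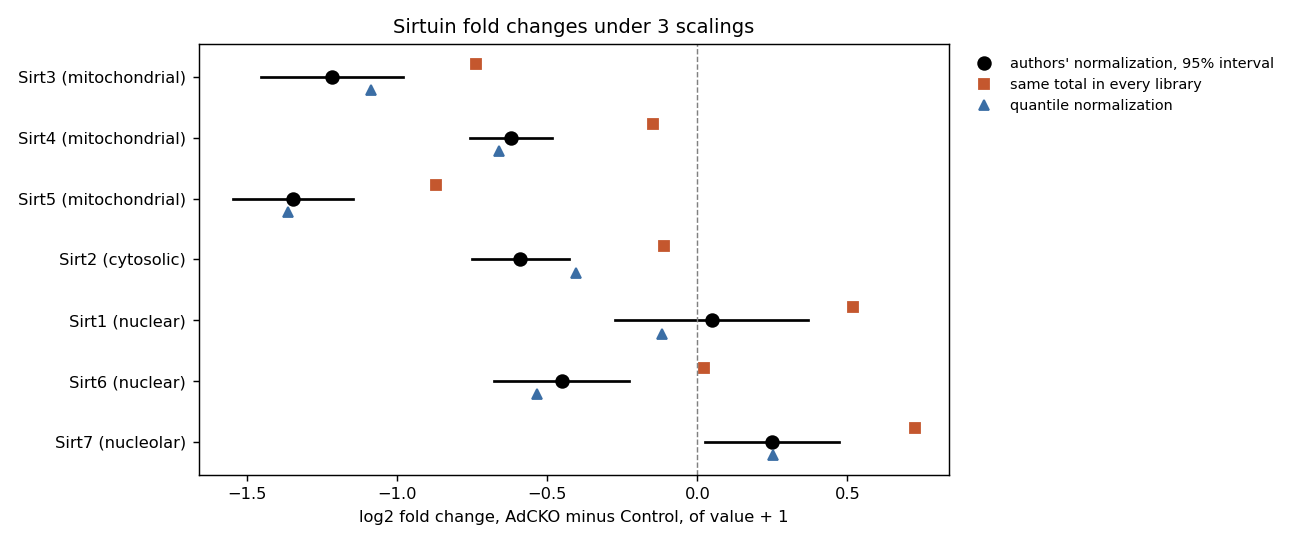
Difference between AdCKO and Control for each sirtuin on the log2(level + 1) scale (x axis), with black points and 95% intervals for the authors' normalization, squares for the same total in every library and triangles for quantile normalization. Sirt3 and Sirt5 lie left of 0 under all of them, while with the same total Sirt6 is at 0.021 and Sirt7 moves to 0.73.

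Ratios of sirtuins within a library do not depend on scaling between libraries, apart from the added pseudocount, and they showed a changed balance of the family. The 3 mitochondrial sirtuins made up 44.3%, 48.3%, 46.6%, 47.3% and 49.6% of the summed level of the family in Control 1 to 5. In AdCKO 1 to 5 they made up 33.1%, 34.1%, 35.3%, 34.1% and 38.2%. The highest AdCKO share was below the lowest Control share. The mean log2 level of the mitochondrial sirtuins minus that of the other 4 was 0.60 to 0.91 in Control and -0.33 to 0.073 in AdCKO, a difference of -0.88 between the group means. No test was run on this score, since its members are not replicates. The summed level of the family itself was 1390 to 1561 in Control and 809 to 967 in AdCKO.

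**Figure D3:**
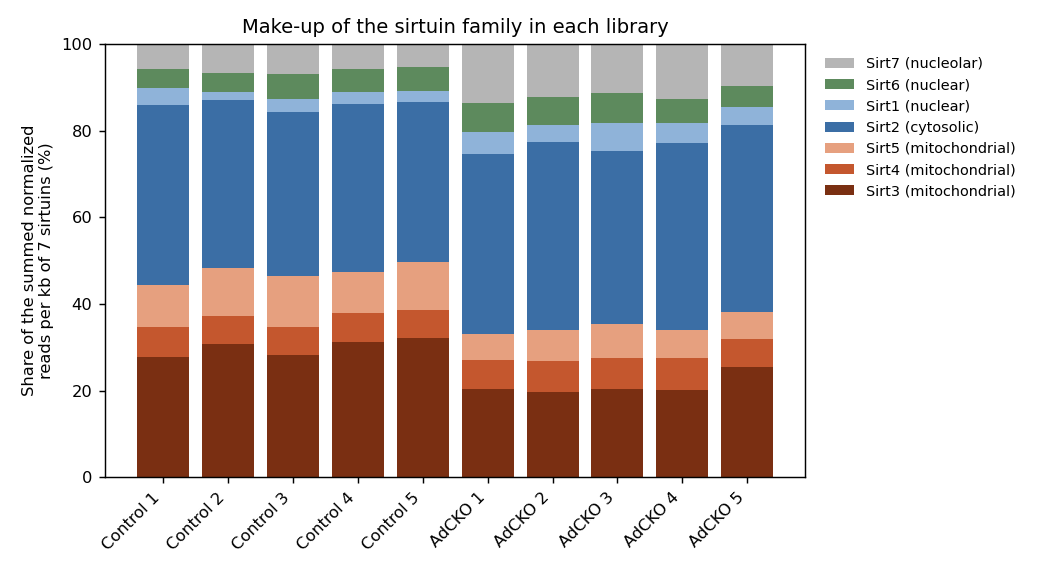
Share of each sirtuin in the summed level of the 7 genes (y axis, percent) in each library (x axis), stacked from mitochondrial Sirt3, Sirt4 and Sirt5 at the bottom to Sirt7 at the top. The mitochondrial part is 44.3% to 49.6% in Control and 33.1% to 38.2% in AdCKO, and the Sirt7 part is wider in AdCKO.

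The fall in the mitochondrial share was carried by Sirt3 and Sirt5 and not by Sirt4. The share of Sirt3 was 27.8% to 32.2% in Control and 19.6% to 25.5% in AdCKO. That of Sirt5 was 9.38% to 11.9% and 5.95% to 7.89%. That of Sirt4 was 6.42% to 6.94% and 6.48% to 7.49%, with the groups overlapping. The log2 ratio of Sirt2 to Sirt4 averaged 2.55 in Control and 2.59 in AdCKO, and that of Sirt3 to Sirt5 was 1.25 to 1.74 and 1.37 to 2.04, and the ranges of both ratios overlapped between the groups. The log2 ratio of Sirt3 to Sirt4, within the mitochondrial group, was 2.00 to 2.32 for Control and 1.42 to 1.98 for AdCKO, without overlap. The 3 mitochondrial members had the most negative differences of the family, but the gap between Sirt4, at -0.62, and cytosolic Sirt2, at -0.59, was smaller than the standard error of either.

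At the other end, Sirt7 took a larger share of the family. It made up 5.43% to 6.86% of the summed level in Control and 9.81% to 13.5% in AdCKO. The log2 ratio of Sirt5 to Sirt7 was 0.70 to 1.02 in Control and -1.19 to -0.51 in AdCKO. Sirt5 was thus above Sirt7 in each of the 5 Control libraries and below it in each of the 5 AdCKO libraries. Sirt4 was above Sirt7 in 3 of 5 Control libraries and in 0 of 5 AdCKO libraries.

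The order of the mean levels changed accordingly. In Control it ran from Sirt2 and Sirt3 through Sirt5, Sirt4, Sirt7 and Sirt6 to Sirt1, and in AdCKO Sirt7 took the place after Sirt3, ahead of Sirt4, Sirt5, Sirt6 and Sirt1. Neighbours with overlapping ranges were Sirt4 and Sirt7 and Sirt7 and Sirt6 in Control. In AdCKO they were Sirt4 and Sirt5, Sirt5 and Sirt6, and Sirt6 and Sirt1. Sirt2 and Sirt3, the leading members, were separated from all others in both groups. Sirt3 was above 89.5% of tested genes by its Control mean and above 78.2% by its AdCKO mean, and Sirt5 above 72.4% and 44.3%.

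Markers of cell types also differed between the groups. Among the brown adipocyte markers 5 of 6 were lower in AdCKO, with Fabp4 not called, and 6 of 6 macrophage and 5 of 6 fibroblast markers were higher. AdCKO 5, the library with the highest Sirt3 level of its group, also had the highest sum of brown adipocyte markers among the AdCKO libraries, 156046. Most of this sum was Fabp4, the marker not called, at 134139 to 163946 in Control and 101185 to 115806 in AdCKO. The other AdCKO libraries did not follow the same order in this sum and in Sirt3. AdCKO 2 had the next highest sum, 146348, with Sirt3 at 171, and AdCKO 1 the lowest, 131315, with Sirt3 at 181. Endothelial markers, of which 1 of 6 was higher, were at 1433 to 1798 in Control and at 1471 to 1990 in AdCKO, and lymphocyte markers at 32.3 to 56.4 and 37.9 to 222, with 0 of 4 tested ones called by limma and 2 higher at an unadjusted p under 0.05. The part of cell composition in the sirtuin differences was not tested. With AdCKO 3 and AdCKO 5 alone, Sirt3 was at -1.11 and Sirt5 at -1.29, and both passed.

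Genes that start beside a sirtuin on the other strand give a local comparison. Psmd13, which encodes a subunit of the proteasome lid, starts 84 bases from Sirt3 in the deposited models. It was at 253, 264, 243, 214 and 249 in Control 1 to 5 and at 228, 226, 198, 246 and 225 in AdCKO 1 to 5. Its groups overlapped, with a difference of -0.12 (SE 0.076, limma adjusted p = 0.17), beside -1.22 for Sirt3. In GENCODE the genes share 152 exonic bases, 10.9% of the counted bases of Sirt3, and whether counting used strand is not given in the sources used here, so reads there cannot be assigned to either gene.

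Nfkbib, which encodes an inhibitor of NF-kB, starts 227 bases from Sirt2 in the deposited models, across the gap printed in part above. It was at 121, 116, 116, 128 and 123 in Control 1 to 5 and at 134, 136, 106, 146 and 108 in AdCKO 1 to 5. The groups overlapped and the difference was 0.048 (SE 0.093, limma adjusted p = 0.67), while Sirt2 fell by 0.59. In GENCODE the pair overlaps, with starts 760 bases apart, and its exons share 42 bases, 2.45% of the counted bases of Sirt2. Ankrd24, which starts 931 bases from Sirt6, was at 35.8 to 41.6 in Control and 16.5 to 25.3 in AdCKO and fell by 0.85 (SE 0.10, limma adjusted p = 1.66e-05), beside 0.45 for Sirt6. Ric8, which overlaps the 3′ end of Sirt3 by 61 exonic bases, was not called (-0.18, limma adjusted p = 0.040).

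**Figure D4:**
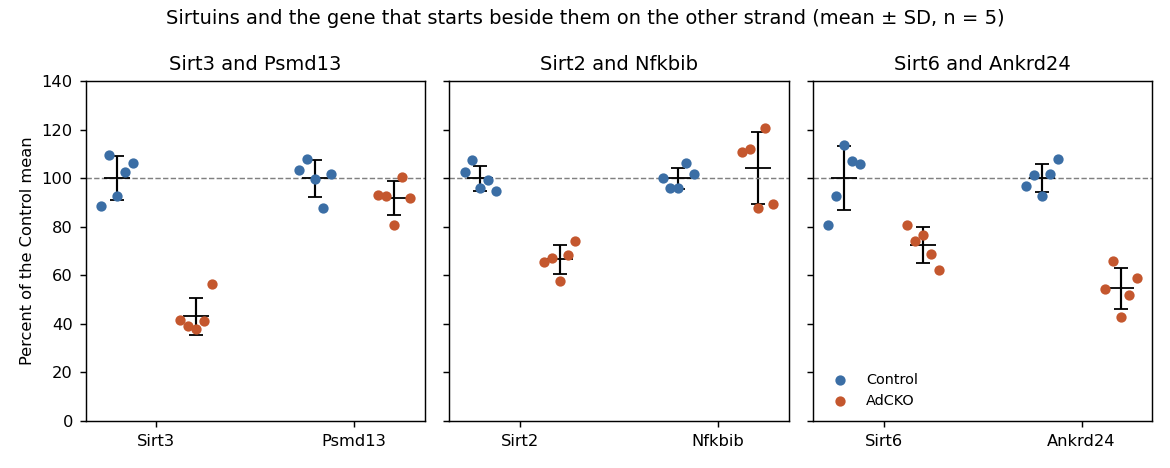
Level as percent of the Control mean (y axis, from 0) for 3 sirtuins and the gene that starts beside each on the other strand, 1 point per library, with bars for the mean ± SD. Sirt3 and Sirt2 are lower in AdCKO while Psmd13 and Nfkbib overlap between groups, and Sirt6 and Ankrd24 are both lower.

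The supply of NAD, on which sirtuins draw, held members called in both directions. Of 11 listed genes, 9 were tested, and 5 were lower, 2 higher and 2 not called, with a median difference of -0.40. The counts of this list and of the other lists stand beside 28% lower and 25.6% higher over all tested genes. Nampt, which encodes the rate-limiting enzyme of salvage from nicotinamide, was at 721 to 1039 in Control and 278 to 370 in AdCKO and fell by 1.42 (SE 0.10, limma adjusted p = 2.65e-07). Naprt, for use of nicotinic acid, fell by 1.24 (SE 0.069, limma adjusted p = 3.45e-08), and Nmrk1, a nicotinamide riboside kinase, and Nadsyn1, of the last step from nicotinic acid, also fell (-0.82 and -0.40). Slc25a51, the carrier that brings NAD into mitochondria, was at 1301 to 1867 in Control and 835 to 1165 in AdCKO and fell by 0.62 (SE 0.11, limma adjusted p = 0.000434). Qprt, of synthesis from tryptophan, rose by 1.12 from a low level (7.36 to 8.42 in Control, 17.3 to 20.4 in AdCKO). Nnt, the mitochondrial transhydrogenase, rose by 1.09, also from a low level (11.5 to 17.2 in Control, 20.5 to 42.6 in AdCKO). Nmnat2 and Nmrk2 were under the filter.

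Of 9 genes whose products consume or convert NAD, 7 were tested, with 3 lower, 1 higher, 3 not called and a median of -0.12. Nadk2, the mitochondrial NAD kinase, was at 148 to 168 in Control and 58.9 to 72.4 in AdCKO and fell by 1.32 (SE 0.072, limma adjusted p = 3.07e-08). Parp1, the ADP-ribosyltransferase of DNA damage, and the cytosolic kinase Nadk fell as well (-0.99 and -0.74). Nnmt, which methylates nicotinamide and so removes it from salvage, rose by 2.12 (SE 0.14, limma adjusted p = 9.72e-08), from 112 to 172 in Control to 510 to 705 in AdCKO. Bst1 and Sarm1 were under the filter.

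Deacetylases of the zinc-dependent classes differed less than Sirt3 and Sirt5. Of 11 genes, 9 were tested, with 4 lower, none higher and 5 not called, and a median of -0.20. At an unadjusted p under 0.05, 2 of them, Hdac7 and Hdac1, were higher in limma. Hdac3 fell by 0.52 (SE 0.059, limma adjusted p = 7.66e-06), and Hdac5 (-0.63), Hdac2 (-0.37) and Hdac10 (-0.31) were also lower. Hdac9 and Hdac11 were under the filter. Equal totals in all libraries left 0 called lower and 4 called higher, while of all 11244 tested genes 1098 were then lower and 6811 higher.

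Genes for mitochondrial proteins that sirtuins are known to act on were lower in most cases. Of 20 listed, 18 were in the table and tested, 15 were lower and 3 were not called, with a median of -1.04. Acss1, the mitochondrial acetyl-CoA synthetase known as a Sirt3 substrate, fell by 2.42 (SE 0.16, limma adjusted p = 1.12e-07). Mccc2, a subunit of the leucine-degrading carboxylase tied to Sirt4, fell by 1.66, and Dlat of the pyruvate dehydrogenase complex (-1.36) and Opa1, of inner membrane fusion (-1.04), were lower too. Cps1 and Otc were not analysed here. All 14 listed TCA cycle enzymes, whose median was -1.32, were lower, Suclg1 (-1.70), Fh1 (-1.56), Idh3b (-1.41) and Suclg2 (-1.40) included. The differences of Sirt3 and Sirt5 lay inside the range of these enzymes, -1.70 to -0.62, and that of Sirt4 at its edge, while 12 of the 14 enzymes were still called lower with equal library totals and 10 under quantile normalization.

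Among 15 substrates and regulators of SIRT1, 8 were lower, 3 higher and 4 not called, with a median of -0.28. Ppargc1a, the coactivator of mitochondrial biogenesis, was at 83.9 to 135 in Control, at 247 to 901 in AdCKO, and rose by 2.24 (SE 0.30, limma adjusted p = 3.70e-05). Trp53, which encodes p53, rose by 1.25 and Rela, a subunit of NF-kB, by 0.37. Acss2, the acetyl-CoA synthetase of cytosol and nucleus, fell by 2.29 (SE 0.23, limma adjusted p = 3.25e-06), and the kinase gene Stk11 was lower too (-0.62). Sirt1 itself was not called.

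**Figure D5:**
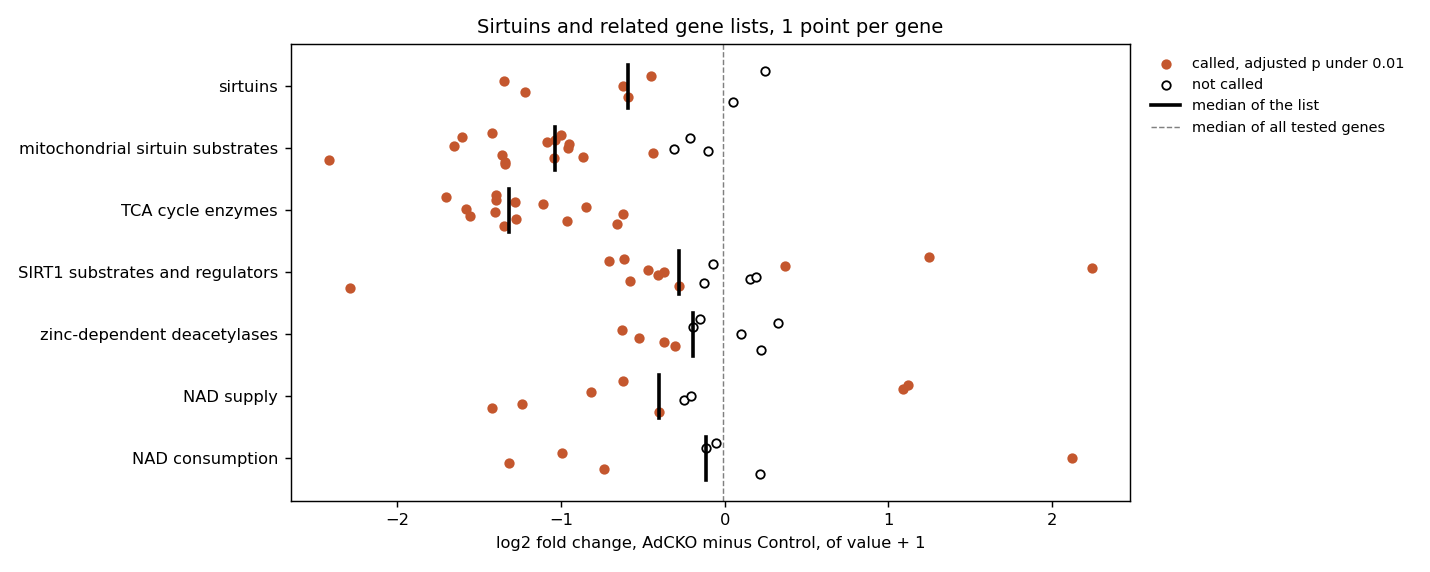
Difference between AdCKO and Control on the log2(level + 1) scale (x axis) for each tested gene of 7 lists, filled where the adjusted p was under 0.01, with a bar at the median of the list and a dashed line at the median of all tested genes. The sirtuins spread from -1.35 to 0.25, with Sirt3 and Sirt5 among the values of the TCA cycle enzymes.

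For each sirtuin, the tested genes with the most similar profile over the 10 libraries were found by the root mean square difference of log2 values centred on the mean of each gene. For Sirt3 they were Tufm, at 0.078, Atp5b, at 0.085, and Cox8a, at 0.092, which encode a mitochondrial translation factor, a subunit of ATP synthase and a subunit of cytochrome c oxidase. For Sirt5 they were Gramd1c, Mrpl50, of the mitochondrial ribosome, and Dnajc22, for Sirt4 Pigq, Carkd and Rpp14, and for Sirt2 Iqsec1, Mtmr9 and Trpc4ap. For Sirt6 they were Morn2, Dtx2 and Timm8b, for Sirt7 Abhd12, Polm and Asph, and for Sirt1 Baz2b and Crebrf. These profiles hold the group difference as well as the spread between libraries, so genes of like difference come first.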

How the data were processed

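Libraries of polyadenylated RNA were grouped by the genotype in the labels. The authors aligned reads with STAR (mm9), counted those on exons with HOMER and iRNA-seq and normalized with DESeq2. Tool versions are not given in the sources used here. The deposited values are a signal, normalized reads per kb of 1 RefSeq transcript per gene, and not counts, so transcript isoforms cannot be separated and depth before normalization is unknown. The precision is the spread between 5 libraries per group, which the labels number as replicates without naming animals, so p-values measure only that spread. The deposited log2 fold changes, adjusted p-values and lists of called genes hold the authors' own comparison and were not used.

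A pseudocount of 1 was added, and genes with a mean of at least 10 in Control or AdCKO were tested with limma 3.58.1 in R 4.3.3 (eBayes with trend, two-sided, Benjamini-Hochberg over 11244 genes, threshold 0.01), after a check on simulated data. Single members were also compared with exact permutation of the difference of means. Named genes are the sirtuins, Crls1, from each list at most 4 called members with the smallest p, called members against the majority and untested members, neighbours within 1000 bases, and the 3 genes most alike in profile, of which 1 for Sirt1 is not reported here. The members and lists were chosen with earlier results of these data known. Alternatives were pseudocounts of 0.1 and 10, no filter or a mean of at least 1, the same total, quantile normalization, robust trend, array weights, a replicate block, a threshold of 0.05 and each library left out; use of AdCKO 3 and 5 alone was added after seeing the data. Sequence and exons came from NCBIM37 and GENCODE M1, and figures from matplotlib 3.10.9.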

Additional observations from a re-analysis of the deposited data

Results flagged for a closer look

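The Sirt3 level of AdCKO 5, 247, stood apart from the other 4 AdCKO libraries, which were at 165 to 181. Its gap to the nearest library was 0.806 of the range of the group, over Dixon's 95% critical value of 0.71 for 5 samples. Chance alone passes this value in about 1 of 20 groups, and 16 groups were examined. Without AdCKO 5 the Sirt3 difference was -1.32 on the log2 scale. The muscle markers of this library, at 114, were near the Control range of 82.0 to 109. Those of AdCKO 3 were at 128, while its Sirt3 level, 165, was the lowest of the group. What set AdCKO 5 apart was not tested.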

How the results depend on the processing

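The number of sirtuins called lower stayed at 5 under 10 of 12 alternatives and whichever library was left out, and was 4 with AdCKO 3 and 5 only and 2 with the same total, with Sirt3 between -1.28 and -0.74 and Sirt5 between -1.36 and -0.87 over the alternatives.

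With the same total in every library, 2 sirtuins were lower and 1 higher, and Sirt6 was at 0.021 (limma adjusted p = 0.87). NAD supply then had 2 lower, NAD consumption 4 higher, zinc-dependent deacetylases 0 lower and 4 higher, SIRT1 substrates and regulators 1 lower and 7 higher, and all genes 1098 lower and 6811 higher. That scaling raises every gene of the AdCKO libraries relative to Control. Sirt1 was at 0.52 with the same total (limma adjusted p = 0.011), -0.12 under quantile normalization, -0.049 without Control 2 and -0.028 without AdCKO 3. Over the libraries left out it ran from -0.049 to 0.16. Array quality weights, and also a threshold of 0.05, gave 1 sirtuin higher, Sirt7, and the latter 2 zinc-dependent deacetylases higher. Without Control 5, 1 zinc-dependent deacetylase was higher, with a range of 0 to 1 over the libraries left out. With no filter or a mean of at least 1, NAD consumption had 2 higher. With AdCKO 3 and 5 only, NAD supply had 3 lower, zinc-dependent deacetylases 2 lower and SIRT1 substrates and regulators 5 lower. Fewer samples or more genes tested are part of how these last settings are built, and otherwise the cause was not tested.

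With the replicate number as a block, 5 sirtuins were lower and 0 higher, and over all genes 2838 were lower and 2592 higher. Same-numbered libraries correlated between -0.27 and 0.098 in their deviations from the group means, so the numbers gave no sign of pairing. Depth before normalization is unknown and limits what can be said of the low members, Sirt1 and Sirt6.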
